A study of Strigamia maritima with 9 samples.

Results

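CopiaMBD2 and CopiaMBD3 are methyl-CpG binding domains carried by Copia retrotransposons of the centipede *Strigamia maritima*, and their binding sites on native genomic DNA are compared here. The members are every peak in the native-DNA peak lists of these domains, 14001 for CopiaMBD2 and 15714 for CopiaMBD3, which makes 29715 of the 37836 peaks in the 6 lists of the series. The rest are the native-DNA peaks of CopiaMBD1, of which there are 7461, and the peaks of all 3 domains on amplified DNA. In DNA affinity purification sequencing (DAP-seq), a protein made in vitro is offered naked, fragmented genomic DNA, and the fragments it holds are sequenced. The DNA came from adult tissue of the strain behind the genome sequence, was sheared to fragments averaging 200 bp, and was amplified for 20 PCR cycles after purification. The CopiaMBD2 library was made with the in-vitro translated CopiaMBD2 domain fused to HaloTag, the CopiaMBD3 library with the CopiaMBD3 domain fused to HaloTag, and the control library with in-vitro translated HaloTag alone, all on native DNA, which keeps any methyl groups it carried. The labels do not give the number of animals behind the DNA, and the assay holds neither chromatin nor other cellular proteins.

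A methyl-CpG binding domain (MBD) is a small fold that recognises a CpG whose cytosines carry methyl groups. In vertebrates, proteins with such a domain bind methylated DNA and recruit repressor complexes. Copia elements are long terminal repeat retrotransposons, which copy themselves through RNA and insert the copy with an integrase. No genome sequence, gene annotation or repeat annotation was used here, so the bases, CpG content and genes at the peaks are not analysed here.

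There was 1 library for each domain and both were called against the same HaloTag-only library, so no test between the domains can be made and each value describes these libraries. After removal of repeated positions the CopiaMBD2 library held 2224965 tags and the CopiaMBD3 library 2044955, against 4050757 in the control. The fraction of tags at repeated positions was 0.06 for CopiaMBD2, 0.07 for CopiaMBD3 and 0.03 for the control. Peaks covered 3400 kb for CopiaMBD2 and 3991 kb for CopiaMBD3. They lay on 4872 and 5103 sequences of the assembly, which are scaffolds with JH names and contigs with AFFK names. Intervals in brackets are 95% intervals over peaks, exact Clopper-Pearson for shares and from binomial order statistics for medians. They cover counting error only, since peaks of 1 library are not replicates and reads copied by PCR, here without molecular identifiers, need not come from separate molecules.

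Most sites of CopiaMBD2 were also sites of CopiaMBD3, and a smaller share of the longer CopiaMBD3 list was matched in return. Of the CopiaMBD2 peaks, 9054 of 14001 shared at least 1 bp with a CopiaMBD3 peak, or 64.7% (63.9 to 65.5). Of the CopiaMBD3 peaks, 8902 of 15714 shared at least 1 bp with a CopiaMBD2 peak, or 56.7% (55.9 to 57.4). These counts only select the sites compared below, because the lists share their control library. A peak without overlap is one whose partner did not pass the authors' q-value of 0.05, which does not show that the other domain left the site unbound. Merged where they overlapped, the lists made 20394 regions: 8635 (42.3%) held both domains, 4947 (24.3%) CopiaMBD2 alone and 6812 (33.4%) CopiaMBD3 alone.

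Matching was more frequent among tall than among low peaks in both lists. The height is the authors' pileup, which counts fragments at the summit, the control having been sampled down to the domain's depth. Among the lowest 10% of CopiaMBD2 peaks by pileup, from 7 to 11 fragments, 37.1% overlapped a CopiaMBD3 peak. Among the lowest 10% of CopiaMBD3 peaks, from 7 to 12 fragments, 32.6% overlapped a CopiaMBD2 peak. At the top of the lists the curves crossed: the highest 10% overlapped in 84.5% of CopiaMBD2 peaks (34 to 280 fragments) and in 92.2% of CopiaMBD3 peaks (35 to 280 fragments).

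The crossing went with the control level. Among the highest 10% by pileup, the median control level at the summit was 4.48 times the lowest level for CopiaMBD2 and 3.66 times for CopiaMBD3, and the median fold enrichment over control was 5.81 for CopiaMBD2 and 7.68 for CopiaMBD3. Ranked by the authors' fold enrichment instead, the CopiaMBD2 share stayed above the CopiaMBD3 share in every 10% of the lists, and the highest 10% overlapped in 91.0% of CopiaMBD2 peaks and 88.9% of CopiaMBD3 peaks. The part of the control level in the crossing was not tested.

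**Figure D1:**
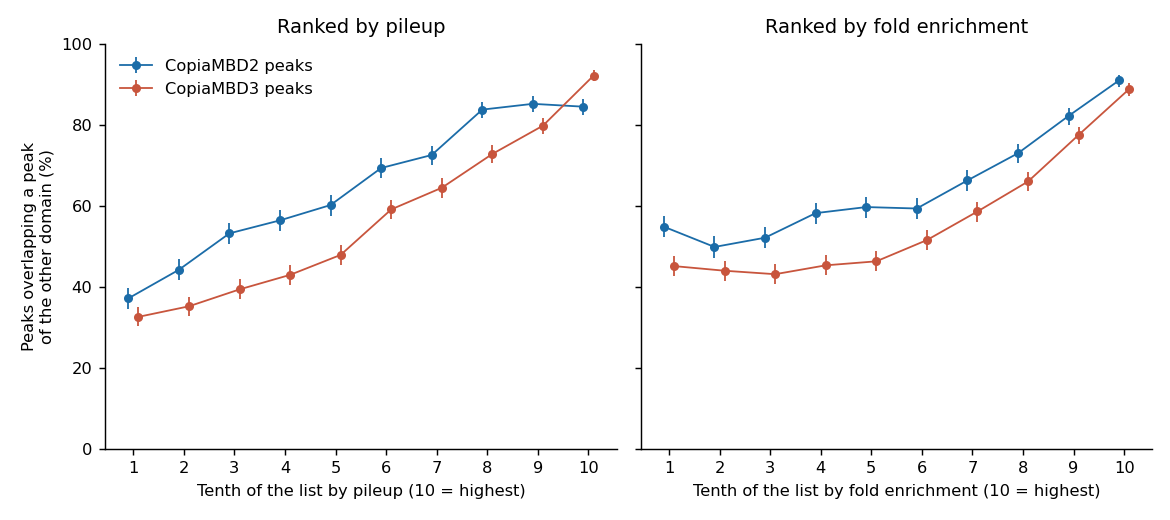
Share of peaks that overlap a peak of the other domain by at least 1 bp (percent, y axis), in successive 10% bins of each list ranked by pileup (left) and by fold enrichment (right), for CopiaMBD2 and CopiaMBD3. Bars are exact 95% intervals over peaks; the curves are higher at the top of each list than at the bottom, cross in the highest bin by pileup (84.5% for CopiaMBD2 and 92.2% for CopiaMBD3), and by fold do not cross and are nearly flat or dip over the lowest bins.

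Splitting the peaks by control level and fold together separated these measures. Where the control was under 2 times its lowest level, a fold under 4 went with overlap in 43.0% of CopiaMBD2 peaks and 35.6% of CopiaMBD3 peaks. At the same control level, a fold of 6 or more went with overlap in 83.0% of CopiaMBD2 peaks and 71.2% of CopiaMBD3 peaks. Overlap thus rose with fold in each list where the control was low. The shares of the lists are not like for like at the same fold. Folds ran higher for CopiaMBD3, with a median of 5.28 over all its peaks against 4.65 for CopiaMBD2. The longer CopiaMBD3 list also offers CopiaMBD2 peaks more to match. Where the control was at least 5 times its lowest level, the CopiaMBD3 share was the higher at a fold under 4. It was 76.0% (70.5 to 80.9), against 66.0% (61.3 to 70.4) for CopiaMBD2. At a fold of 6 or more it was 96.4% for CopiaMBD2 and 98.1% for CopiaMBD3.

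The tallest peaks of the lists stood at the same places, on AFFK contigs where the control was also high. The caller kept 1 tag per position and used fragments of 140 bp for both domains, and the highest pileup in either list was 280, which is 2 times that length; 1 CopiaMBD2 peak and 2 CopiaMBD3 peaks reached it. The tallest CopiaMBD2 peak, on AFFK01003161 from 569 to 1265, had a pileup of 280 and a fold of 2.39, and the CopiaMBD3 peak over the same place had 279 and 2.65. On AFFK01017866 both peaks had a pileup of 279, with summits at 401 for CopiaMBD2 and 400 for CopiaMBD3. On AFFK01014187 the pileups were 278 for CopiaMBD2 and 280 for CopiaMBD3, with summits at 1574 and 1575. These places were thus near-identical in position and at the limit of the height measure, so their heights cannot be ordered. A CopiaMBD3 peak of the same height, on AFFK01016211 from 920 to 1385, lay over a CopiaMBD2 peak with a pileup of 270, against 280 for CopiaMBD3. At the tallest CopiaMBD2 peak the control stood at 65.0 times its lowest level.

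Tall peaks without a partner were few in both lists. At or above the 99th percentile of pileup, 5 of 138 CopiaMBD2 peaks (3.62%, 1.19 to 8.25) and 1 of 158 CopiaMBD3 peaks (0.633%, 0.0160 to 3.48) overlapped no peak of the other domain, and these intervals overlap. The tallest such CopiaMBD2 peak, on AFFK01005462 from 167 to 399, had a pileup of 217 and a fold of 3.80. It was followed by AFFK01002583 from 768 to 944 (pileup 142, fold 3.09) and AFFK01008622 from 725 to 1006 (pileup 139, fold 5.16). None of these 3 contigs held a CopiaMBD3 peak, and all 3 CopiaMBD2 peaks overlapped a native-DNA peak of CopiaMBD1. Most unmatched CopiaMBD2 peaks did not: 916 of 4947 (18.5%) overlapped a CopiaMBD1 peak, against 52.0% of the CopiaMBD2 peaks shared with CopiaMBD3.

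The tallest unmatched CopiaMBD3 peaks were of lower pileup. The first, on AFFK01001106 from 180 to 369, had a pileup of 124 and a fold of 2.35, on a contig with no CopiaMBD2 peak. The second, on AFFK01019939 from 11443 to 11616, lay 140 bp from a CopiaMBD2 peak with a pileup of 62, against 113 for CopiaMBD3. The last of the 3, on JH431681 from 9948 to 10131, lay 1175 bp from a CopiaMBD2 peak with a pileup of 12, against 109 for CopiaMBD3. The first and the last overlapped no CopiaMBD1 peak, and the one on AFFK01019939 did. Of all unmatched CopiaMBD3 peaks, 819 of 6812 (12.0%) overlapped a CopiaMBD1 peak, against 52.2% of those shared with CopiaMBD2.

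At shared sites the domains peaked close together and without a lean to either side. In 8047 pairs, a peak of each list overlapped exactly 1 peak of the other (57.5% of CopiaMBD2 peaks and 51.2% of CopiaMBD3 peaks). The median distance between their summits was 29 bp (28 to 30), and its quartiles were 12 and 62 bp. The summits fell on the same base in 105 pairs (1.30%), within 10 bp in 22.5%, within 50 bp in 69.0% and within 100 bp in 86.3%. With fragments averaging 200 bp, most summits were therefore closer together than a fragment is long. In 386 pairs (4.80%) they lay more than 200 bp apart.

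The CopiaMBD2 summit had the lower coordinate in 4005 pairs (49.8%) and the higher in 3937 (48.9%). The signed distance, CopiaMBD2 minus CopiaMBD3, had a median of 0 bp (-1 to 1). In 89.3% of the pairs each summit lay inside the other domain's peak, and in 47.1% a peak lay wholly inside its partner.

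**Figure D2:**
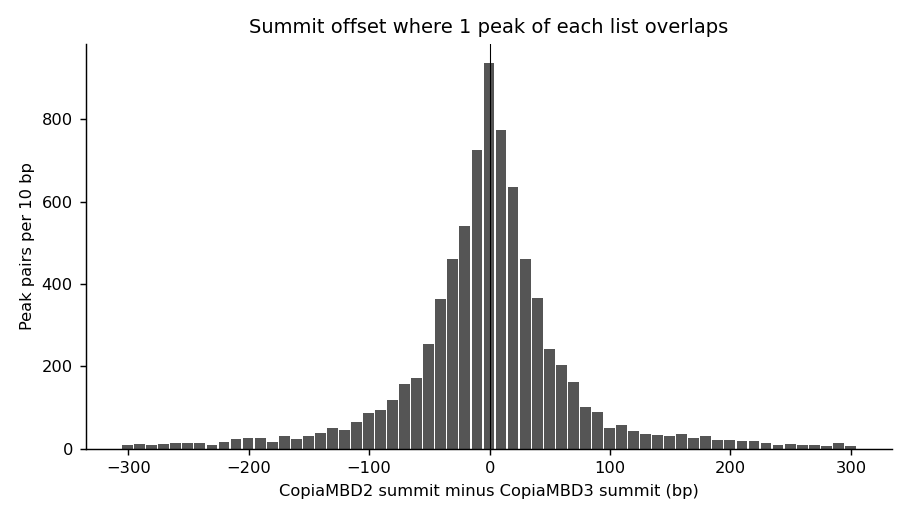
Number of peak pairs (y axis) by the CopiaMBD2 summit position minus the CopiaMBD3 summit position in bp (x axis), in bars of 10 bp, for the 8047 pairs; pairs beyond the plotted range are not drawn. The bars are centred on 0, with 69.0% of all pairs within 50 bp.

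Summits were closer at narrow and at tall sites. The median distance was 23 bp in the 1590 pairs whose wider peak was under 200 bp, 28 bp in the 4968 pairs of at least 200 but under 400 bp and 50 bp in the 1489 pairs of 400 bp or more. It was 14 bp in the 853 pairs where both pileups were in the highest 10% of their lists, and 41 bp in the 1758 pairs where both were below the median. By enrichment it was 16 bp in the 495 pairs with a fold of at least 8 in both lists and 34 bp in the 637 pairs with a fold under 4 in both. It was 33 bp on JH scaffolds and 25 bp on AFFK contigs. A summit over few fragments is placed less precisely, and this part of the distance was not tested. The widths of overlapping peaks also limit how far apart their summits can lie. The largest distance was 198 bp in pairs under 200 bp and 863 bp in those of 400 bp or more. The rise of the distance with width thus follows in part from how the pairs were selected.

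The same distance separated the summits of either domain from those of CopiaMBD1. It was 29 bp (27 to 30) over 5226 pairs of CopiaMBD2 and CopiaMBD1, and 30 bp (29 to 31) over 5052 pairs of CopiaMBD3 and CopiaMBD1. All 3 lists share their control library.

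The pairs with the largest distances were broad on both sides. On JH432085 the CopiaMBD2 summit was at 94019 and the CopiaMBD3 summit at 93156, 863 bp apart, in peaks 838 bp and 1236 bp wide. On JH431210 they were at 32836 for CopiaMBD2 and 33594 for CopiaMBD3, 758 bp apart, and on JH431717 at 63672 for CopiaMBD2 and 62987 for CopiaMBD3, 685 bp apart. The CopiaMBD2 summit had the lower coordinate on JH431210 and the higher one on the other sequences.

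By median, CopiaMBD3 peaks were slightly wider than CopiaMBD2 peaks at the same sites, though hardly so where both were low. Shared sites were wider than unshared ones for both. The median width over the whole lists was 200 bp for CopiaMBD2 and 206.5 bp for CopiaMBD3. Peaks that overlapped a peak of the other domain had a median of 225 bp for CopiaMBD2 and 243 bp for CopiaMBD3. Peaks without overlap had a median of 172 bp for CopiaMBD2 and 176 bp for CopiaMBD3. A wider peak is also more likely to touch another, so the width of shared peaks depends in part on how they were selected.

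**Figure D3:**
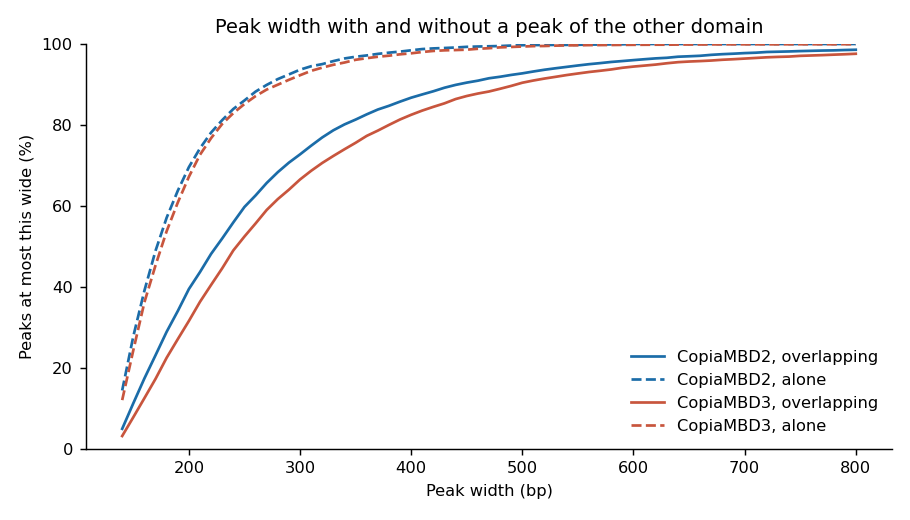
Cumulative share of peaks (percent, y axis) at most as wide as the value on the x axis (bp), for CopiaMBD2 and CopiaMBD3 peaks with an overlap (solid) and alone (dashed). Peaks alone reach the top first, with medians of 172 bp for CopiaMBD2 and 176 bp for CopiaMBD3, against 225 bp and 243 bp where the lists overlap.

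Within the 8047 pairs, the CopiaMBD2 peak was narrower in 4655 (57.8%), wider in 3305 (41.1%) and of equal width in 87. The median difference, CopiaMBD2 minus CopiaMBD3, was -13 bp (-15 to -11), while the quartiles were -64 and 32 bp. The difference was therefore small beside the spread between sites. It was -2 bp in pairs under 200 bp, -19 bp in pairs of at least 200 but under 400 bp and -46 bp in wider pairs. These classes were set by the wider peak and no peak is under 140 bp, so the narrower classes limit the difference. It was -3 bp (-7 to 0) with both pileups below the median and -10 bp (-14 to -7) with both in the highest 10%. With both folds under 4 it was -1 bp (-6 to 3), and with both at least 8 it was -12 bp (-17 to -7).

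Tag lengths differed, 53 bp for CopiaMBD2 and 62 bp for CopiaMBD3, and no neighbouring peaks of a list lay closer than 54 bp for CopiaMBD2 and 63 bp for CopiaMBD3. With the 101 CopiaMBD2 gaps of up to 62 bp closed, the median difference stayed at -13 bp.

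Both domains had broad peaks that overlapped several peaks of the other list. In all, 258 CopiaMBD2 peaks overlapped 2 or more CopiaMBD3 peaks by at least 1 bp, with a median width of 541 bp, against 245 bp for the CopiaMBD3 peaks they overlapped. Likewise 392 CopiaMBD3 peaks, with a median width of 612 bp, overlapped 2 or more CopiaMBD2 peaks, whose median width was 235 bp. The overlapped peaks could extend beyond the broad one. The widest CopiaMBD2 peak, on AFFK01020418 from 1809 to 3754, spanned 1946 bp with a pileup of 24 and a fold of 8.95, and 4 CopiaMBD3 peaks lay along it. The next widest CopiaMBD2 peaks, of 1816 bp on AFFK01016938 and 1678 bp on JH432062, each overlapped 2 CopiaMBD3 peaks.

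The widest CopiaMBD3 peak, on JH431198 from 209253 to 211361, spanned 2109 bp with a pileup of 44 and a fold of 11.8, and overlapped 2 CopiaMBD2 peaks. The next, of 1818 bp on JH431789 and 1681 bp on JH430833, also overlapped 2 CopiaMBD2 peaks each. The widest peaks of both lists had pileups of 24 to 44, far under those of the tallest, and folds between 6.97 and 12.5. These named peaks were thus well above control without being the tallest, at pileup percentiles of 77.9 to 94.2 within their lists. Over the widest 10% of each list, the median fold was lower, at 5.72 for CopiaMBD2 and 6.85 for CopiaMBD3.

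Within the pairs, sites high in the CopiaMBD2 list were mostly high in the CopiaMBD3 list. Peaks outside the pairs are left out. Among the highest 10% by pileup, 84.5% of CopiaMBD2 peaks and 92.2% of CopiaMBD3 peaks had any overlap. Pileup is not corrected for the control, whose median level there was 4.48 times the lowest for CopiaMBD2 and 3.66 times for CopiaMBD3. Because the lists come from different depths, pileups are set side by side as percentiles within each list. In the 8047 pairs the percentile for CopiaMBD2 minus that for CopiaMBD3 had a median of -1.12 points (-1.64 to -0.984), with quartiles of -16.0 and 10.7 points. The CopiaMBD2 rank was the higher in 44.5% of pairs and the lower in 55.5%, and the ranks were within 10 points in 42.6%. The median difference depended on where the lists were cut: it was -0.204 points with the lists cut to the same number of peaks and -7.42 points with peaks of a −log10 q of 10 or more.

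Among the 1095 pairs in the highest 10% of the CopiaMBD2 list, 853 (77.9%) were also in the highest 10% of the CopiaMBD3 list and 11 were below its median. Among the 1249 pairs in the highest 10% of the CopiaMBD3 list, the same 853 made up 68.3%, and 22 were below the CopiaMBD2 median. Large disagreements were uncommon: ranks were more than 50 points apart in 454 pairs, with CopiaMBD2 higher in 183 and CopiaMBD3 higher in 271.

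The 3 largest disagreements in each direction were on AFFK contigs, which held 3220 of the 8047 pairs. Over all pairs, the rank differences spread wider on JH scaffolds. Their quartiles were -18.1 and 12.1 points there, against -11.7 and 8.73 points on AFFK contigs. CopiaMBD2 ranked far higher on AFFK01020730, where the pileup was 29 for CopiaMBD2 and 9 for CopiaMBD3 (percentiles 86.0 and 1.23) with summits 141 bp apart. It also did so on AFFK01023668, with pileups of 30 for CopiaMBD2 and 10 for CopiaMBD3, and on AFFK01020097, with 25 and 9. CopiaMBD3 ranked far higher on AFFK01002759, where the pileup was 10 for CopiaMBD2 and 40 for CopiaMBD3 (percentiles 4.60 and 92.9) with summits 82 bp apart. The other pairs of that kind were on AFFK01018253, with 10 for CopiaMBD2 and 36 for CopiaMBD3, and on AFFK01013827, with 11 and 44. In these 6 pairs the summits were 53 to 289 bp apart. The median was 29 bp over all pairs and 41 bp where both pileups were below the median. By selection 1 peak of each pair was low, with a pileup of 9 to 11, where a summit is placed less precisely. Some pairs overlapped only in part, as on AFFK01020730, where the shared stretch ran from 10914 to 10983. Whether both peaks of such a pair mark the same site was not tested.

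Many unmatched sites of either domain lay near a site of the other. Of the 4947 CopiaMBD2 peaks without overlap, 39.5% (38.2 to 40.9) had a CopiaMBD3 peak within 1000 bp of their edge. Of the 6812 CopiaMBD3 peaks without overlap, 35.9% (34.7 to 37.0) had a CopiaMBD2 peak that near. Very close neighbours were a minority, since 8.55% of unmatched CopiaMBD2 peaks and 7.43% of unmatched CopiaMBD3 peaks had one within 140 bp, the fragment length used by the caller. With peaks of a −log10 q of 10 or more alone, the shares within 1000 bp were 19.7% for CopiaMBD2 and 14.5% for CopiaMBD3. Within 10000 bp, over all unmatched peaks, the shares were 74.4% for CopiaMBD2 and 72.0% for CopiaMBD3.

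Where the other domain had any peak on the same sequence, the median gap to it was 1067 bp (1011 to 1145) for CopiaMBD2 and 1303 bp (1240 to 1376) for CopiaMBD3. The median gap from a peak to the next along the same list was 1491 bp for CopiaMBD2 and 1426 bp for CopiaMBD3. These values are not comparable with those above, because the gap to the other domain takes the nearer of both sides. Taking the nearer side makes a gap smaller by construction. The other domain had no peak on the sequence at all for 893 unmatched CopiaMBD2 peaks (18.1%) and 1207 unmatched CopiaMBD3 peaks (17.7%). The CopiaMBD3 list offers more neighbours than the CopiaMBD2 list, so the gaps of the lists are not on equal terms.

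**Figure D4:**
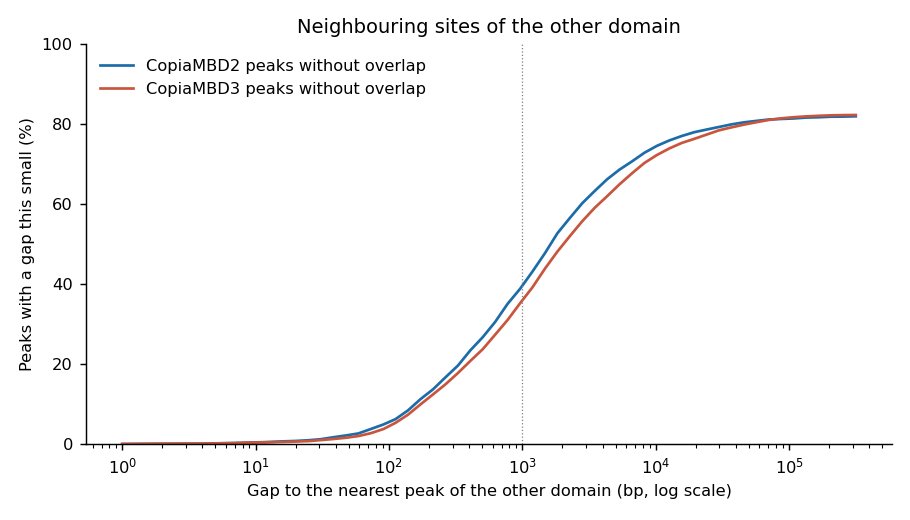
Cumulative share of unmatched peaks (percent, y axis) whose gap to the nearest peak of the other domain is no larger than the value on the x axis (bp, log scale), for CopiaMBD2 and CopiaMBD3. The curves pass 39.5% for CopiaMBD2 and 35.9% for CopiaMBD3 at 1000 bp (dotted line) and level off short of 100% because some sequences hold no peak of the other domain.

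The near neighbour was itself a shared site about as often as any peak of its list. For unmatched CopiaMBD2 peaks with a CopiaMBD3 peak within 1000 bp, that neighbour overlapped another CopiaMBD2 peak in 1110 of 1955 cases (56.8%), against 56.7% of all CopiaMBD3 peaks. For unmatched CopiaMBD3 peaks with a CopiaMBD2 peak within 1000 bp, the neighbour overlapped another CopiaMBD3 peak in 1568 of 2444 cases (64.2%), against 64.7% of all CopiaMBD2 peaks. Regions followed each other at no more than 1000 bp in 6697 cases, and a region with such a neighbour on each side counts in both. In 946 of these cases (14.1%) a CopiaMBD2-only region stood next to a CopiaMBD3-only region. A CopiaMBD2-only region stood next to a shared one in 1291 (19.3%), and a CopiaMBD3-only region next to a shared one in 1781 (26.6%). Regions of a single domain next to their own kind numbered 414 (6.18%) for CopiaMBD2 and 723 (10.8%) for CopiaMBD3, and shared regions next to shared ones 1542 (23.0%). These shares follow in part from the mix of regions, of which 24.3% held CopiaMBD2 alone, 33.4% CopiaMBD3 alone and 42.3% both, and their departure from that mix was not tested.

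Linked at gaps of up to 1000 bp, the regions formed 13697 patches, of which 9807 (71.6%) were single regions. Patches held both domains in 7207 cases (52.6%), and in 517 (3.77%) both were present only side by side, with no shared region. CopiaMBD2 alone made 2693 patches and CopiaMBD3 alone 3797. The patch with most regions, on JH432211 from 446230 to 462729, held 20 regions in 16500 bp: 13 shared, 1 of CopiaMBD2 alone and 6 of CopiaMBD3 alone. On JH429927 from 666 to 9646 a patch of 14 regions had 6 shared, 4 of CopiaMBD2 alone and 4 of CopiaMBD3 alone. Both clusters thus mixed shared and single-domain sites.

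Most sequences with a peak held both domains, and the longer CopiaMBD3 list was the denser in each class of sequence described here. Both domains had peaks on 4070 of 5905 sequences, CopiaMBD2 alone on 802 and CopiaMBD3 alone on 1033. The sequences with a single domain held few peaks, at most 4 of CopiaMBD2 and at most 5 of CopiaMBD3, and their last native-DNA peak of any domain ended at a median position of 880.5 bp for CopiaMBD2 and 990 bp for CopiaMBD3. Sequence lengths are not in the files, so density was taken per 100 kb of each sequence up to its last native-DNA peak of any domain, which overstates it on short sequences.

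Over all sequences the density was 11.5 peaks per 100 kb for CopiaMBD2 and 13.0 for CopiaMBD3. On JH scaffolds it was 8.01 for CopiaMBD2 and 9.27 for CopiaMBD3, and on AFFK contigs 41.9 for CopiaMBD2 and 44.6 for CopiaMBD3. On the 273 sequences spanning at least 100 kb it was 3.99 for CopiaMBD2 and 4.88 for CopiaMBD3. CopiaMBD2 made up 45.0% (43.8 to 46.2) of the peaks of both lists on those long sequences and 47.7% (47.1 to 48.4) on shorter ones. CopiaMBD3 peaks were the more numerous on 177 of the long sequences, CopiaMBD2 peaks on 47, and the numbers were equal on 49. On long sequences CopiaMBD3 peaks stayed the denser with lists of equal length and with a stricter cutoff. On shorter ones the CopiaMBD2 share rose just above 50% with lists of equal length, and its interval (49.7 to 51.1) held 50%. With the lists cut to the same number of peaks the CopiaMBD2 shares were 48.6% on long and 50.4% on shorter sequences, and at a −log10 q of at least 10 they were 29.7% and 39.8%.

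**Figure D5:**
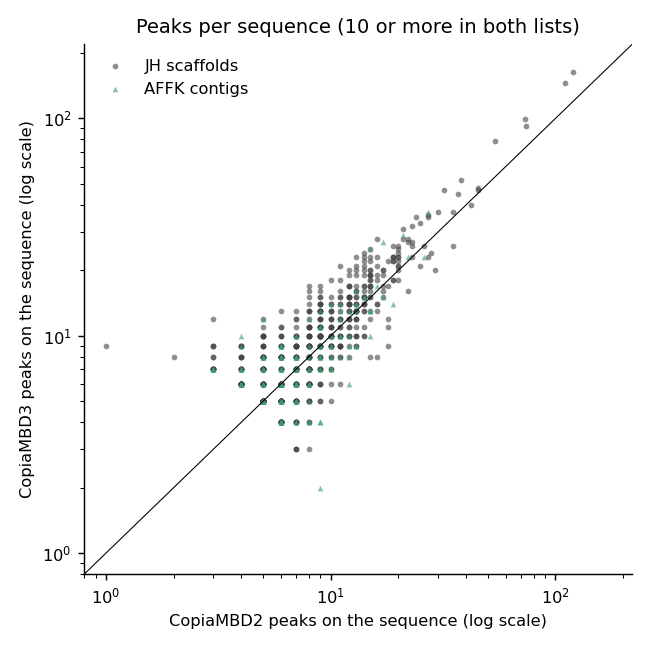
Number of CopiaMBD2 peaks (x axis) and CopiaMBD3 peaks (y axis) on each sequence with at least 10 peaks in both lists together, on log scales, for JH scaffolds and AFFK contigs; the line marks equal numbers. The points follow the line, and the 5 sequences with most peaks lie above it, from 54 and 79 peaks on JH432085 up to 120 and 164 on JH432211.

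The 5 sequences with most peaks were all JH scaffolds. JH432211 held 120 CopiaMBD2 peaks and 164 CopiaMBD3 peaks, a density of 25.6 and 35.0 per 100 kb. Of these, 28 CopiaMBD2 peaks and 77 CopiaMBD3 peaks had no overlap. JH431789 held 110 CopiaMBD2 peaks and 146 CopiaMBD3 peaks, and JH431830 held 73 and 99. JH432185 had 74 CopiaMBD2 peaks and 92 CopiaMBD3 peaks, and JH432085 had 54 and 79. CopiaMBD3 was thus the more numerous on all 5, and its unmatched peaks outnumbered those of CopiaMBD2 on each.

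Among all peaks, matched or not, the CopiaMBD2 share on peak-rich sequences lay on both sides of the share over all sequences. On the 108 sequences with at least 30 peaks in both lists together, the CopiaMBD2 share had a median of 45.2% and ranged between 34.4% and 60%. CopiaMBD3 peaks were more numerous on 83 of them, CopiaMBD2 peaks on 19, and 6 were equal. The highest share was on JH432157, with 18 CopiaMBD2 peaks and 12 CopiaMBD3 peaks (60%, 40.6 to 77.3), followed by JH431511 with 29 and 20 and JH431507 with 22 and 16. The lowest was on JH432018, with 11 CopiaMBD2 peaks and 21 CopiaMBD3 peaks (34.4%, 18.6 to 53.2), followed by JH432062 with 13 and 23 and JH431304 with 16 and 28. All 108 intervals held the share over all sequences, 47.1%. A shared site adds a peak to both lists, so the peaks counted are not independent. The intervals therefore cannot show whether a single sequence departs. Unmatched peaks alone numbered 28 for CopiaMBD2 and 77 for CopiaMBD3 on JH432211, and 11 and 3 on JH431511. Over all sequences they numbered 4947 and 6812, and departures among unmatched peaks were not tested.

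Amplified DNA was copied by 11 PCR cycles before binding, which removes methyl groups by design, and its lists, called against the HaloTag-only library on amplified DNA, held 133 peaks for CopiaMBD2 and 169 for CopiaMBD3. Lists this short can match few native-DNA peaks at most, so the shares below describe how few such peaks there were. The domain's own amplified-DNA list had a peak at 25 of 9054 shared CopiaMBD2 peaks (0.276%) and at 36 of 8902 shared CopiaMBD3 peaks (0.404%). Among unmatched peaks it had one at 2 of 4947 for CopiaMBD2 (0.0404%) and at 6 of 6812 for CopiaMBD3 (0.0881%).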

How the data were processed

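Native-DNA DAP-seq peaks of CopiaMBD2 and CopiaMBD3 were compared, 1 library each, called against 1 HaloTag-only library. Samples were grouped by title. Per the file headers, the authors called peaks per library with MACS2 2.1.0.20150731 at a q-value of 0.05, keeping 1 tag per position, sampling the larger library down, and taking local control levels over 1 and 10 kb. Other tools in the submitters' processing notes, with no step stated, are Bowtie, Bowtie2, BS-Seeker2, fastp and CASAVA 1.8.2. No genome build is named in the labels or headers. Positions are 1-based, as in the files.

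The deposited pileup is a coverage signal in fragments, the authors' fold enrichment is a ratio of pileup to local control, and the −log10 p-value and −log10 q-value columns, as deposited, come from the peak caller. All serve only to rank, filter or describe peaks of a list. Exceptions are pileups and folds of named peaks, fold medians and fold classes, which are set side by side. The control level was recovered as (pileup + 1) / fold − 1 and is given relative to its lowest value in the list.

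Overlap meant at least 1 bp. Pairs were peaks that each overlapped exactly 1 peak of the other list. Analysis used Python 3.11.15, numpy 2.4.6, pandas 2.3.3 and scipy 1.17.1, with plots in matplotlib 3.10.9, and the scripts were tested on simulated data. Named were the 3 tallest, 3 tallest unmatched and 3 widest peaks of each list, the 3 pairs with the largest rank difference in each direction, the 3 pairs with the largest summit distance, the 5 sequences with most peaks, and the 3 sequences of highest and of lowest CopiaMBD2 share among those with at least 30 peaks. The 2 patches named, among those with most regions, were chosen after their values were seen. The members and this rule were chosen with earlier results of these data known. The CopiaMBD1 amplified-DNA list and the bisulfite sample are not used here.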

Additional observations from a re-analysis of the deposited data

How the results depend on the processing

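For the 8 values compared between the lists, 12 alternative settings gave 67 values. Of these, 25 moved by less than their interval and 42 by more. Only the width and rank differences can change sign, since the others are shares or a distance. Both stayed negative under every setting that gave them. Values below are in the order CopiaMBD2, CopiaMBD3 where a pair is given. With −log10 q at or above 3, overlap of CopiaMBD3 peaks was 54.3%, the rank difference -1.79 points, the share of unmatched CopiaMBD3 peaks beside a CopiaMBD2 peak 34.0% and the CopiaMBD2 share on long sequences 43.1%. A −log10 q at or above 10 left 3623 CopiaMBD2 peaks and 5920 CopiaMBD3 peaks. Overlap of CopiaMBD3 peaks was then 39.9%, while that of CopiaMBD2 peaks, at 65.3%, did not fall. The summit distance was 20 bp, the rank difference -7.42 points, the beside shares 19.7 and 14.5% and the long-sequence share 29.7%. With lists of equal length, overlap was 60.4 and 59.0%, the rank difference -0.204 points, the beside share of CopiaMBD2 37.2% and the long-sequence share 48.6%. On JH scaffolds alone, overlap was 62.9 and 53.3%, the summit distance 33 bp and the beside share of CopiaMBD2 41.0%. On AFFK contigs alone, overlap was 67.6 and 62.6%, the summit distance 25 bp and the beside shares 36.8 and 33.4%. With the control under 3 times its lowest level, overlap was 57.4 and 52.0%, the summit distance 32 bp, the rank difference -1.79 points, the beside shares 37.9 and 34.0% and the long-sequence share 46.6%. Requiring 50% of both peaks to overlap gave 50.7 and 45.1%, a distance of 26 bp, and beside shares of 56.7 and 49.3%, since smaller overlaps then counted as beside. The beside shares were 26.5 and 23.6% within 500 bp and 68.0 and 64.0% within 5000 bp. Over every overlapping pair the distance was 33 bp, and with long sequences taken from 10 kb the CopiaMBD2 share was 46.8%. Stricter or shorter lists hold fewer peaks to match by construction, and other causes were not tested. Closing CopiaMBD2 gaps of up to 62 bp, chosen after seeing the data, moved none of the 8 values beyond its interval. No paired analysis was possible because each domain has 1 library, and for the same reason none could be left out. Depth limits the weakest peaks most, which held 7 fragments.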
